A study of Homo sapiens with 12 samples.

Results

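MIR663A, MIR663B, MIR3648-1 and MIR3648-2 are miRNA precursor genes whose sequence matches the 45S pre-ribosomal RNA, and they are 4 of the 1881 precursors counted by small RNA sequencing of the melanoma line A375 and of A375-BIR. They were chosen by name after earlier results on these libraries were known: MIR663A, MIR3648-1 and MIR3648-2 were selected on how far the 2 lines differed in their response to dabrafenib, and precursors that resemble rRNA were known to be higher in dabrafenib. Their values in dabrafenib against DMSO, in each treatment taken alone and in the difference in response are therefore given as a description. Calls from the same fit are printed for these contrasts, and nothing is read from them. All 4 were found by their GENCODE gene name and all 4 passed the filter on low counts, which kept 175 precursors.

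A375 is a human melanoma line sensitive to dabrafenib, an inhibitor of the BRAF kinase, and A375-BIR is the resistant line that was selected from it by culture in rising amounts of the drug. Each line was treated for 48 h with 200 nM dabrafenib or with DMSO (0.1%), the vehicle, which gives 4 groups of 3 libraries labelled as biological replicates. A375-BIR is a single resistant line, so that resistance and any other property of that line cannot be told apart. As these are bulk samples, fewer cells that make an RNA and less of it per cell cannot be told apart either.

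RNA polymerase I transcribes the repeated ribosomal genes in the nucleolus as a long 45S precursor. External and internal transcribed spacers (ETS and ITS) are cut out of it and degraded, and the 18S, 5.8S and 28S rRNAs stay in the ribosome. A miRNA, by contrast, is cut from a hairpin by Drosha and Dicer and recognizes its targets mainly through its seed, bases 2 to 8. Several annotated miRNA hairpins lie inside ribosomal repeats or in diverged copies of them, and a short read from the spacer and a read from such a hairpin can have the same letters.

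The mature sequences show how close this match is. RefSeq (GRCh38.p14) lists a mature miRNA for 3 of the members, written here 5′ to 3′ with the seed in capitals, and the seeds differ from each other.
miR-663a: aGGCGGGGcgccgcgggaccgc
miR-663b: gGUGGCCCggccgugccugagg
miR-3648, listed under MIR3648-2: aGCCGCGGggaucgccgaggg
Each occurs whole and once in the 45S unit, miR-663a at bases 2050 to 2071, miR-663b at 2114 to 2135 and miR-3648 at 2513 to 2533, counted from the 5′ end of the unit. G and C make up 90.9% of miR-663a, 81.8% of miR-663b and 81.0% of miR-3648.

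All 4 hairpins match the 5′ETS, the spacer before the 18S rRNA, which takes bases 1 to 3643 of the 13315 bases of the unit (RNA45SN2, hg38, chr21:8205988-8219302, plus strand). MIR663A (ENSG00000284419, chr20:26208186-26208278, minus strand, 93 bases) shares 87 bases in a row with it, at 2039 to 2125. MIR3648-1 (ENSG00000275708, chr21:8208473-8208652, plus strand) lies within RNA45SN2 itself, 979 bases before the 18S gene, and its 180 bases are bases 2486 to 2665 of the unit. MIR3648-2 (ENSG00000264462, chr21:8986999-8987178, plus strand) has the same 180 bases at another place on the chromosome. The matching part of MIR663B (ENSG00000221288, chr2:132256966-132257080, minus strand, 115 bases) is shorter, 40 bases in a row at 2100 to 2139, and it is in capitals in the RefSeq hairpin, shown because it holds the mature miRNA whole.
MIR663B hairpin: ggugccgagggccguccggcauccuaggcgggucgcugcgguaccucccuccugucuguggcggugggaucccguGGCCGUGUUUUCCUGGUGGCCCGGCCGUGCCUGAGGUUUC

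The surroundings of each member match the spacer as well. Around MIR663A, an alignment of 1920 columns covered bases 436 to 2321 of the unit with 88.5% identity. Around MIR663B, one of 1733 columns covered bases 840 to 2568 with 83.1% identity, and a pseudogene of the 18S rRNA lies 771 bases from the hairpin. Around MIR3648-2, one of 2146 columns covered bases 2092 to 4221 with 98.8% identity. In GENCODE v44, MIR663A is intronic to MIR663AHG, a long non-coding RNA gene (in all 120 transcripts that span it), and MIR663B to ANKRD30BL. The MIR3648 hairpins are also the longest of all precursors, where the median is 80 bases, and their GC content of 83.9%, against a median of 50.9%, is reached by 13 precursors, themselves included. MIR663A and MIR663B share 26 bases in a row with each other.

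Reads that fit several of these precursors were divided among them by RSEM, so the members are not 4 separate measurements. The expected counts of MIR3648-1 and MIR3648-2, whose sequences are identical, had a ratio between 0.994 and 1.03 in the 12 libraries, and they are read here as 1 measurement. MIR663B held between 2.00% and 9.39% of the summed counts of MIR663A and MIR663B. The authors removed reads that mapped to rRNA before counting, and whether the sequences used for this included the spacers is not given in the sources used here.

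**Figure D1:**
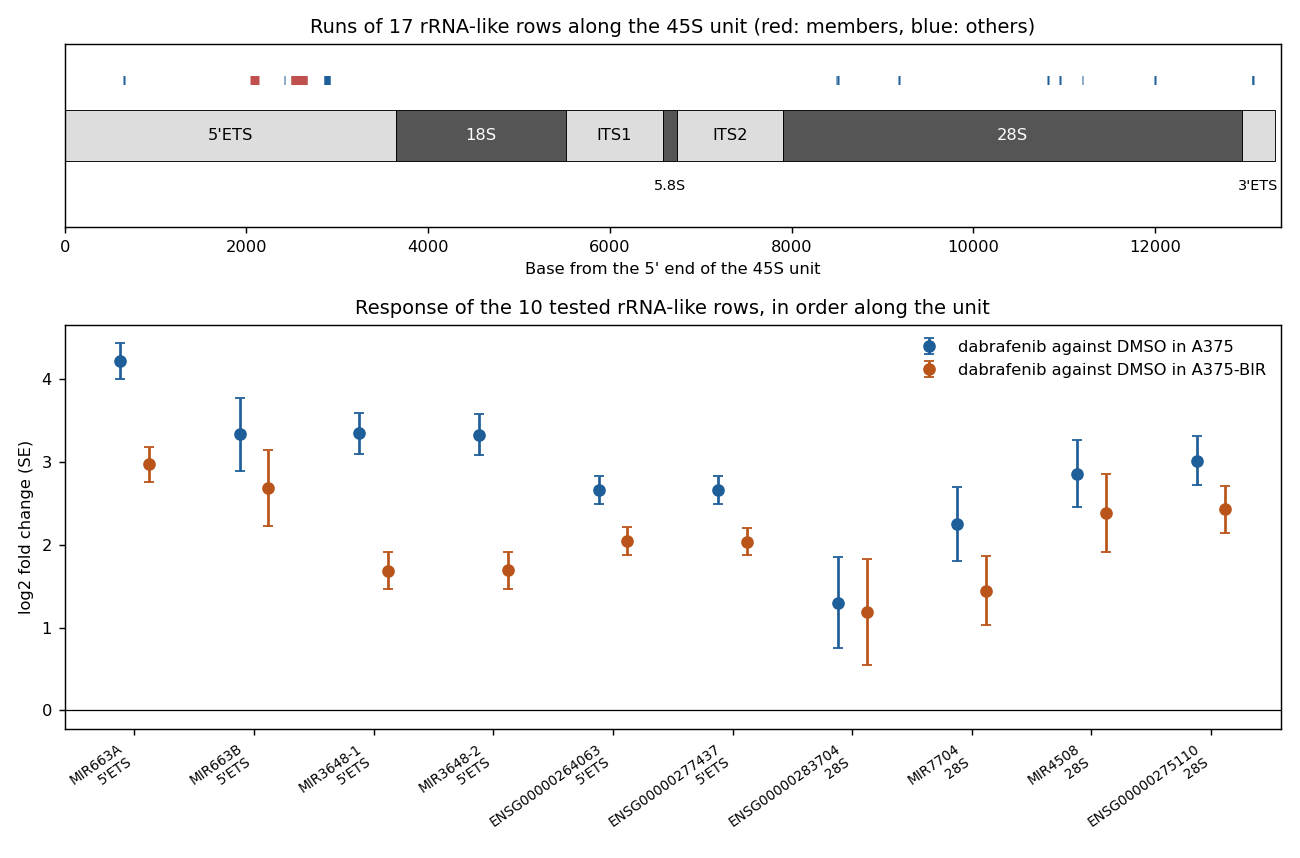
Upper panel: the 45S unit drawn to scale in bases, with the runs shared by 17 precursors above it (red: MIR663A, MIR663B, MIR3648-1 and MIR3648-2; blue: 13 others). Lower panel: log2 fold change of dabrafenib against DMSO in each line, with its standard error, for the 10 tested precursors in their order along the unit; every estimate is above 0, and MIR663A in A375 is at 4.21.

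The libraries held few counts on precursors, and the sums differed with the treatment. Depth here means this sum of expected counts, since the number of reads sequenced cannot be seen in the values used. Expected counts summed to between 77264 and 121802 per library in A375 in DMSO and between 36955 and 51532 in A375 in dabrafenib. In A375-BIR the sums were between 106427 and 122792 in DMSO and between 35070 and 59899 in dabrafenib. From counting error alone, a precursor with 0 counts could stand at up to 24.4 CPM of the library total where depth was greatest and at up to 85.5 CPM where it was least, taking 3 counts as the limit.

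MIR663A was lowest in A375-BIR in DMSO, with 51.4, 61.4 and 90.9 expected counts in the 3 libraries (483, 509 and 740 CPM). A375 in DMSO had 88.0, 105 and 106 counts (1138, 858 and 1217 CPM). In dabrafenib, A375-BIR had 171, 278 and 173 counts (4873, 4637 and 3643 CPM) and A375 had 666, 767 and 469 (14015, 14888 and 12702 CPM). Scaled this way, the 4 groups stood in that order without overlap, and all 6 dabrafenib libraries were above all 6 DMSO libraries.

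MIR3648-1 had a different order of groups. It was lowest in A375 in DMSO, with 24.8, 39.9 and 33.9 counts (321, 327 and 390 CPM), and higher in A375-BIR in DMSO, with 72.3, 97.7 and 102 (679, 810 and 828 CPM). In dabrafenib, A375 had 99.2, 152 and 87.1 counts (2087, 2946 and 2357 CPM) and A375-BIR had 77.0, 128 and 140 (2194, 2140 and 2933 CPM). The lines did not overlap in DMSO and overlapped in dabrafenib, where the mean CPM was 2464 ± 439 for A375 and 2423 ± 443 for A375-BIR (SD, n = 3 each). MIR3648-2 followed it, with means of 347 ± 37.6 and 2429 ± 458 CPM in A375 and of 771 ± 83.3 and 2424 ± 443 CPM in A375-BIR, in DMSO and dabrafenib.

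MIR663B had few counts. There were 5.15, 4.88 and 5.52 in A375 and 2.80, 4.46 and 9.41 in A375-BIR in DMSO, and 13.6, 30.4 and 11.5 in A375 and 12.1, 15.3 and 14.0 in A375-BIR in dabrafenib. The lines overlapped in both treatments, and the dabrafenib libraries lay between 255 and 590 CPM, above the DMSO libraries at 26.3 to 76.6 CPM.

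**Figure D2:**
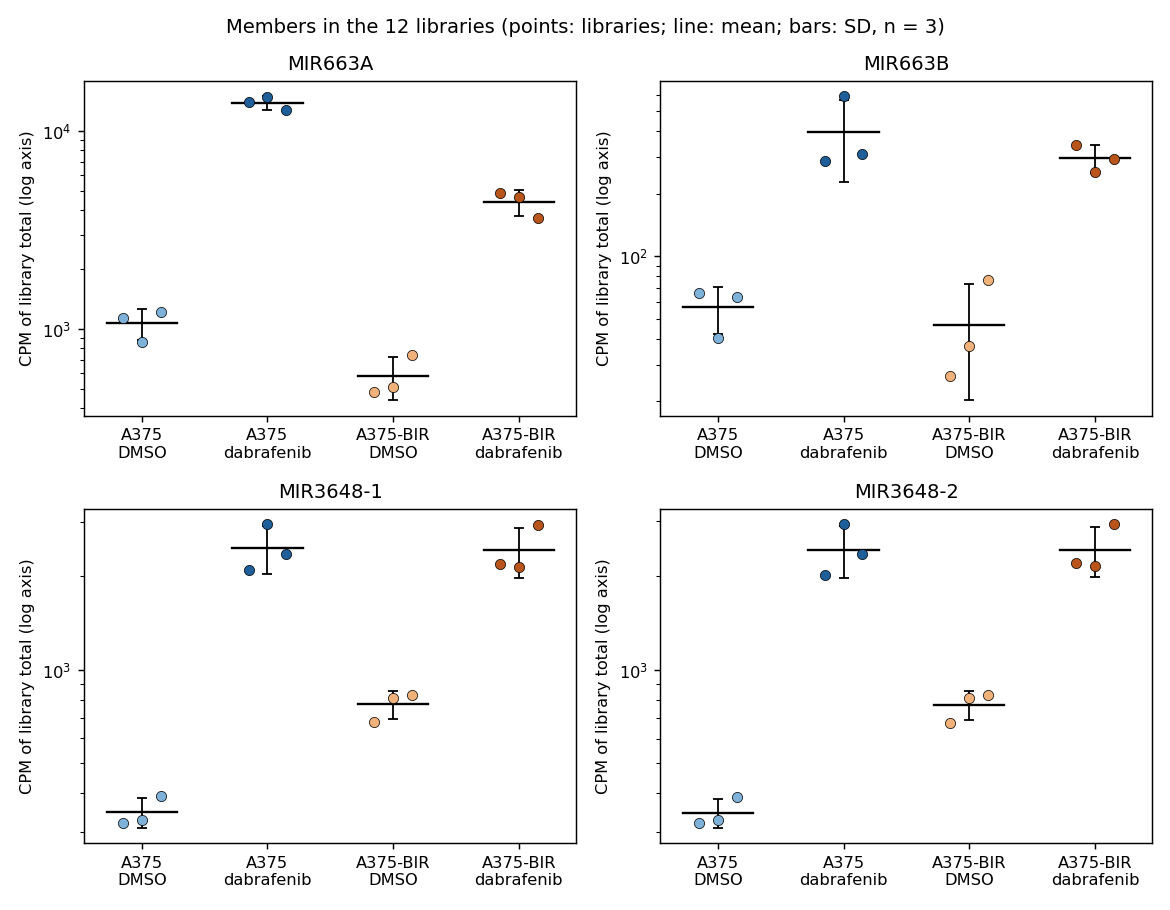
CPM of the library total (log axis) of MIR663A, MIR663B, MIR3648-1 and MIR3648-2 in each library (points), with the mean (line) and SD (bars, n = 3) of each group. MIR663A lies between 12702 and 14888 CPM in A375 in dabrafenib and between 483 and 740 CPM in A375-BIR in DMSO, while the lines overlap for MIR3648-1 and MIR3648-2 in dabrafenib.

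The question that the selection of members leaves to a test is whether the lines differ over both treatments, since this contrast does not use the difference in response. MIR663A was higher in A375, with a log2 fold change over A375-BIR of 1.53 (standard error 0.14; edgeR's quasi-likelihood test over 175 precursors, FDR = 5.64e-07), and within each treatment all 3 values of A375 were above all 3 of A375-BIR. MIR663A is also in a list that the study chose for a difference between these lines on these libraries, so this is not independent evidence. MIR3648-1 and MIR3648-2 had log2 fold changes of -0.32 (standard error 0.16, 95% confidence interval -0.66 to 0.03, FDR = 0.107) and -0.33 (FDR = 0.100), and MIR663B had 0.65 (standard error 0.34, interval -0.07 to 1.37, FDR = 0.115), in edgeR's quasi-likelihood test. Thus 1 of the 4 members was called, where 60.0% of all tested precursors were called in this comparison (45 higher and 60 lower in A375). With the identical MIR3648 copies taken as 1 measurement, this is 1 of 3.

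The sign of the MIR3648 difference over both treatments was the same under all alternatives run, and its call was not. Without TMM, on total counts only, MIR3648-1 passed the threshold as lower in A375, at a log2 value of -0.56 (FDR = 0.004 from edgeR's quasi-likelihood test, range over the alternatives 0.004 to 0.301). Without A375 dabrafenib replicate 2 it was -0.44 (FDR = 0.018), and other settings that passed are given with the processing. With no filter the copies split, MIR3648-2 passing at -0.49 and MIR3648-1 not at -0.48. MIR663B passed with DESeq2's size factors at 0.75 (FDR = 0.048) and without A375-BIR DMSO replicate 3 at 0.89 (FDR = 0.038), with FDR between 0.038 and 0.542 over the alternatives. Its value fell to 0.39 with total counts alone and to 0.40 without A375 dabrafenib replicate 2, and it did not pass in either.

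Taken by treatment, MIR3648-1 differed between the lines in DMSO and overlapped in dabrafenib. The log2 fold change of A375 over A375-BIR was -1.14 (standard error 0.24) in DMSO and 0.51 (standard error 0.22) in dabrafenib, where it was not called. Over the alternatives the latter lay between 0.02 with total counts alone and 0.70 without A375-BIR dabrafenib replicate 3, the only one in which it was called. For MIR663A it was 0.90 (standard error 0.21) in DMSO and 2.15 (standard error 0.20) in dabrafenib, and for MIR663B 0.32 and 0.97, the latter between 0.47 and 1.13 over the alternatives and called under 4 of 22. The DMSO value of MIR663B lay between 0.15 without A375-BIR DMSO replicate 1 and 0.81 without replicate 3, and no alternative called it. In DMSO 1 member was called higher and 2 lower in A375, where 46.3% of all tested precursors were called, and in dabrafenib 1 was called higher, where 46.3% were called as well. Nothing is read from these counts, since both contrasts are parts of the difference by which members were selected.

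Dabrafenib against DMSO gave log2 fold changes in A375 of 4.21 for MIR663A (standard error 0.22), 3.33 for MIR663B (0.44), 3.34 for MIR3648-1 (0.24) and 3.32 for MIR3648-2 (0.25). In A375-BIR they were 2.97 (0.21), 2.68 (0.46), 1.69 (0.22) and 1.69 (0.22). All 4 members were called higher in A375, where 25.1% of all precursors were called, and all 4 in A375-BIR, where 20.6% were called, and nothing is read from this. The difference between these responses, which selected the members, was 1.24 for MIR663A, 1.65 for MIR3648-1, 1.64 for MIR3648-2 and 0.65 for MIR663B (95% confidence interval -0.82 to 2.12). In it 3 of 4 members were called, against 3.43% of all tested precursors, and the call of MIR663A was lost under 10 of 23 alternatives. Nothing is read from this either. The size depends on the scaling: with total counts alone, the difference was 0.77 for MIR663A, 1.17 for MIR3648-1 and 0.16 for MIR663B, while the median over the tested precursors moved from 0.17 to -0.30.

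The members' share of each library is scaled on its total counts and not by TMM, so it can differ from the fitted values. They took 0.182% ± 0.0253 of the counts in A375 in DMSO and 0.217% ± 0.0305 in A375-BIR in DMSO, and 1.92% ± 0.193 and 0.953% ± 0.0319 in dabrafenib (SD, n = 3 each). The lowest share was that of A375 DMSO replicate 2 (0.156%, 95% Wilson interval 0.135% to 0.179%) and the highest that of A375 dabrafenib replicate 2 (2.13%, 2.01% to 2.26%). The mean share was 10.5-fold higher in dabrafenib than in DMSO in A375 and 4.40-fold higher in A375-BIR. The lines overlapped in DMSO and did not in dabrafenib.

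What made up this share differed between the lines. In A375-BIR in DMSO, MIR663A and MIR663B took 0.0624% ± 0.0168 of the counts and the MIR3648 copies 0.154% ± 0.0165, whereas in A375 in DMSO they took 0.113% ± 0.0202 and 0.0693% ± 0.00756. In dabrafenib the MIR3648 copies took 0.489% ± 0.0897 in A375 and 0.485% ± 0.0886 in A375-BIR, and the MIR663 pair took 1.43% ± 0.123 and 0.468% ± 0.0666 (SD, n = 3 each). On this scale the gap between the lines in dabrafenib lay in the MIR663 pair, whereas with TMM the MIR3648-1 estimate was also above 0, at 0.51.

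Depth moved with the share. Counts on precursors without a match to the 45S unit were on average 91496 per library in A375 in DMSO and 34877 in dabrafenib, and 112731 and 40024 in A375-BIR. Summed counts of the members went the other way, from a mean of 170 to 876 in A375 and from 254 to 451 in A375-BIR. TMM factors ran from 0.693 to 0.822 for A375 in dabrafenib, and from 1.04 to 1.19 elsewhere. The part of depth and of library composition in the difference between treatments was not tested.

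**Figure D3:**
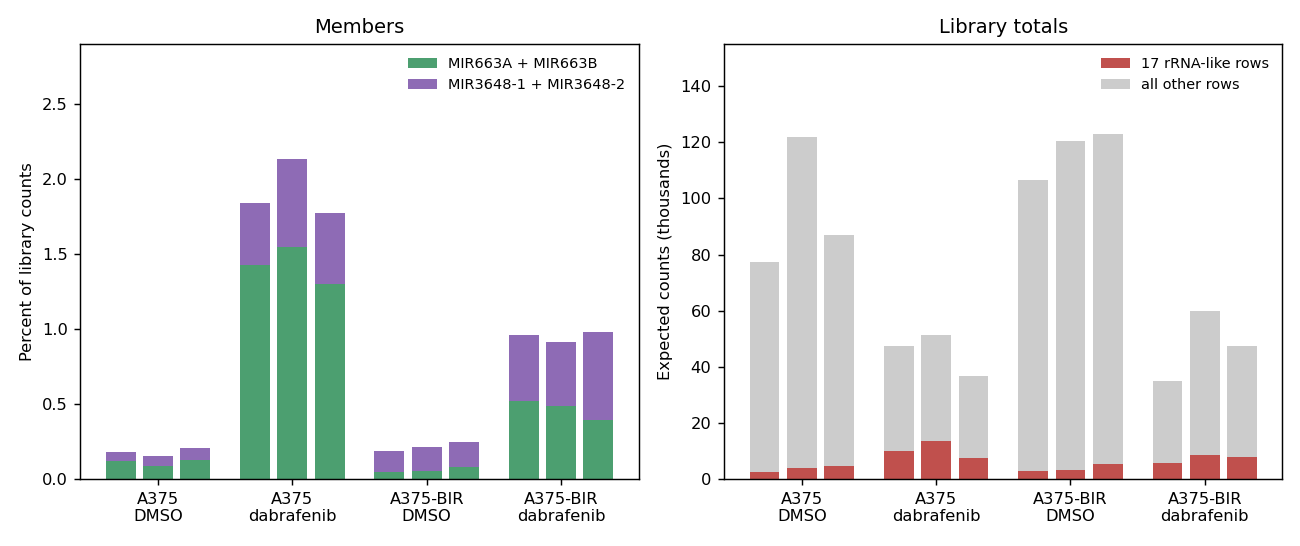
Left: percent of the counts of each library on MIR663A and MIR663B (green) and on MIR3648-1 and MIR3648-2 (purple), 1 bar per library. Right: expected counts of each library, with the part on all 17 rRNA-like precursors in red; the members reach 2.13% in an A375 library in dabrafenib while the totals of the dabrafenib libraries stay at or below 59899.

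Ratios within a library do not depend on its scaling. They were chosen after the values were seen and are not tested, and their level also depends on the lengths of the precursors, so only their order over the groups is described. The counts of the MIR3648 copies divided by those of MIR663A and MIR663B were 2.66, 2.97 and 2.03 in A375-BIR in DMSO and 0.840, 0.876 and 1.49 in A375-BIR in dabrafenib. In A375 they were 0.533, 0.731 and 0.609 in DMSO and 0.287, 0.379 and 0.361 in dabrafenib. The groups did not overlap: the ratio was higher in A375-BIR than in A375 in both treatments and lower in dabrafenib than in DMSO in both lines. As members were selected on how their response differed between the lines, part of this order was set by the selection, and nothing is read from it.

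Another pair of precursors in the same spacer gives a second scale. ENSG00000277437 (chr21:8208844-8208904) and ENSG00000264063 (chr21:8987370-8987430), without a GENCODE gene name, are identical over their 61 bases, which are bases 2857 to 2917 of the unit. Their summed counts divided by those of MIR663A and MIR663B were between 8.86 and 11.1 in A375-BIR and between 6.23 and 8.03 in A375 in DMSO, and between 4.69 and 5.78 and between 2.39 and 2.52 in dabrafenib, again without overlap of the groups. The MIR3648 copies had 0.249 ± 0.0268 times the counts of this pair in A375-BIR in DMSO and 0.0877 ± 0.0121 in A375 in DMSO (SD, n = 3 each). In dabrafenib these ratios were 0.197 ± 0.0539 and 0.139 ± 0.0166.

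**Figure D4:**
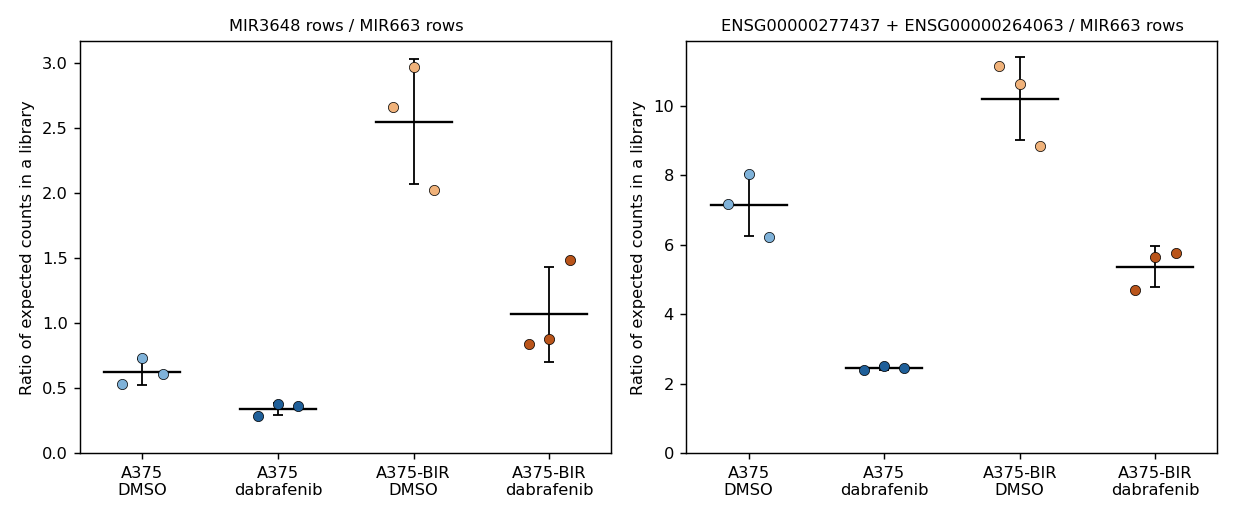
Ratio of expected counts within each library (points), with the mean (line) and SD (bars, n = 3) of each group: the MIR3648 copies over MIR663A and MIR663B (left), and ENSG00000277437 with ENSG00000264063 over MIR663A and MIR663B (right). Both ratios are highest in A375-BIR in DMSO and lowest in A375 in dabrafenib.

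In all, 17 precursors share a run of at least 18 bases with the sense strand of the 45S unit, the 4 members and 13 others. The members are among the 6 precursors whose run reaches 40 bases, together with the pair just named. At the limit of 18 bases stand MIR4488, MIR7704, MIR4508, MIR7110, MIR1268A, ENSG00000264341, ENSG00000263453 and ENSG00000283704 with runs of 18. By segment, 8 precursors match the 5′ETS (MIR4466 and ENSG00000264341 besides those named), 7 the 28S rRNA and 2 the 3′ETS, and 10 of the 17 were tested.

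Most counts of this kind were not on the members. ENSG00000275110 (chrX:109054542-109054590, plus strand) took 58320 counts over the 12 libraries, against 3026 for MIR663A. Its sequence in hg38 is shown with the 26 bases it shares with the 28S rRNA (bases 11989 to 12014 of the unit, chr21:8217976-8218001) in capitals.
ENSG00000275110: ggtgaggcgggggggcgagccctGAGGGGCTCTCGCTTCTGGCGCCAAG
Its CPM in DMSO was 30699.8 ± 12587 for A375 and 24246 ± 9709 for A375-BIR, and in dabrafenib 172518 ± 24684 and 124659 ± 15882 (SD, n = 3 each). In both lines DMSO replicate 3 had the highest value of its group, 45220 and 35457 CPM.

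The members made up 18.6% ± 1.64 of the counts on 5′ETS precursors in A375 in DMSO and 35.3% ± 0.319 in dabrafenib, and 25.8% ± 1.27 and 27.7% ± 2.61 in A375-BIR (SD, n = 3 each). Over both treatments, where 45 of all 175 precursors were called higher in A375, 5 of the 6 other tested rRNA-like precursors were so called by edgeR's quasi-likelihood test (the identical pair counting as 2), among them ENSG00000277437 at a log2 value of 0.67 (FDR = 1.24e-04) and ENSG00000275110 with 0.66 (FDR = 0.009). MIR7704 was the exception, at 0.11 (FDR = 0.763). Calls of these 6 under other scalings are not given. On library totals, the mean CPM of ENSG00000277437 in A375 was 1.27 times that in A375-BIR in DMSO, with overlap. In dabrafenib it was 1.41 times, without overlap. By treatment, where 46.3% of all precursors were called in each, 0 of these 6 were called in DMSO, although all but MIR7704 had values above 0, and 4 in dabrafenib. With the replicate number as a block in DMSO alone, 1 (ENSG00000283704) and 5 were called. In the difference between the responses 0 of 6 were called, where 3.43% of all were. Whether they differ from the members in this was not tested, and the members were selected on it. Their log2 values there lay between 0.11 and 0.81. The lowest, that of ENSG00000283704, turned to -0.13 with the block in DMSO alone. MIR1268A and MIR1268B, which match the 3′ETS, together had 2.52 to 7.24 counts per library in DMSO and 0.74 to 1.69 in dabrafenib, at or under the limit of 3 counts in the latter, so that no fold is given.

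The precursors most like the members over the 12 libraries were found by the Pearson correlation of log2 CPM with the mean of the 4 members, among 171 others. The points share library depth and the 4 groups, so that a high value may reflect differences between the groups, which was not tested. ENSG00000277437 (0.98), ENSG00000264063 (0.98) and ENSG00000275110 (0.98) were among the 5 highest, together with MIR10B (0.98) and MIR4449 (0.96), whose hairpins do not meet the limit of 18 shared bases. MIR10B, a miRNA within the HOXD cluster, had 1681 ± 224 CPM in DMSO and 3336 ± 470 CPM in dabrafenib in A375. MIR887 (-0.85) and MIR365B (-0.82) were at the other end. As a scale, the precursors with the most counts were MIRLET7B, MIRLET7I and MIRLET7A1, of the let-7 family, and MIRLET7B took 194050 ± 13189 CPM in A375 in DMSO.

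The lines were checked on miRNAs known from melanocytes and melanoma. In DMSO, MIR204 had a mean CPM of 1853 ± 167 for A375 and 147 ± 33.8 for A375-BIR, and in dabrafenib of 4595 ± 1355 and 320.4 ± 162 (SD, n = 3 each). MIR509-1 had 410 ± 17.9 CPM for A375 in DMSO and 512 ± 103 CPM in dabrafenib. It had at most 2 counts in each A375-BIR library, under the limit of 3 counts. MIR211, from the melanocyte gene TRPM1, had at most 9 counts in a library. Of the 5 miRNAs of this list 1 had 0 counts in each group, and MIR146A had most of the counts of the list in each group (7458.5 of 8107.67 in A375 in DMSO), so that the sum mainly follows it. The summed level of the list was 26216 to 30607 CPM in A375 and 1131 to 1884 CPM in A375-BIR in DMSO, and 14851 to 17679 and 1848 to 2710 CPM in dabrafenib. Markers of other cells were low. The 4 blood miRNAs summed to at most 168 CPM in a library. The 3 muscle miRNAs reached 31.7 CPM and the 2 epithelial miRNAs 84.0 CPM. MIR122 of the liver had 0 counts in all 12 libraries. The blood and epithelial maxima, both in A375-BIR in dabrafenib, were above the limit of 3 counts. In that group MIR142 held 12.5 of the 15.5 blood counts.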

How the data were processed

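Small RNA was sequenced from A375 and A375-BIR in DMSO or dabrafenib, 3 libraries each. After trimming and the removal of contaminants such as rRNA and phiX, the authors counted with RSEM 1.2.25 on hg38 and deposited an expected count per miRNA precursor and library. Their notes also list R 4.0.2 and edgeR. RSEM divides reads among similar precursors, and arms are not resolved. The Wilson intervals and the limits on counts cover counting error only. The confidence intervals of log2 fold changes use the standard errors of the quasi-likelihood fit, which also hold the spread between libraries.

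Expected counts were rounded and tested with edgeR 4.0.16 in R 4.3.3: filterByExpr over the 4 groups, TMM, a single fit of 4 group means to the 12 libraries, and the quasi-likelihood test, adjusted over 175 precursors by Benjamini and Hochberg (threshold FDR 0.05). All 4 members passed the filter, so the permutation test for precursors below it was not needed. The members and the lists were chosen with earlier results of these data known. Of 1881 rows, 1879 matched GENCODE v44 and 1854 had a name. Precursors were read from hg38 and searched for runs of at least 18 bases of RNA45SN2; the surroundings (15 kb on either side) were aligned with blastn 2.17.0. Sequences of mature miRNAs and of the MIR663B hairpin are from RefSeq. Named precursors were the members, rRNA-like precursors with a count, the 5 most and 2 least correlated with the members (log2 CPM, prior count 2), the 3 most abundant, and line markers, of which MIR204, MIR211 and MIR509-1 were picked after the values were seen.

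The labels give replicate numbers without saying what they share. Same-numbered DMSO libraries of the 2 lines deviated together (correlations 0.11 to 0.30, each over the limit of 0.1). The numbers were therefore taken to pair these, as a hint from the data, and no other groups. In other pairs of groups single values also passed 0.1, up to 0.19. Correlations of libraries with different numbers were not computed, and the main fit holds no block. Replicates of a group differed by more than sampling noise (12 pairs, chi-square over its degrees of freedom 2.86 to 42.0). A375-BIR DMSO replicate 3 stood apart, at 36.5 and 42.0 against replicates 1 and 2, which gave 2.86 between them. It also had the highest MIR663A and MIR663B of its group. Alternatives were other filters (1 CPM in 3 libraries, none), DESeq2 1.42.0's size factors or Wald test, total counts, totals without rRNA-like precursors, the likelihood ratio test, a replicate block, the same in DMSO alone (added after seeing the data), summed copies, unrounded counts, other run lengths or strands, and each library left out. Tables and figures used Python 3.11.15, pandas 2.3.3 and matplotlib 3.10.9.

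With 3 libraries per group and few counts, small differences between the lines are missed, most of all for MIR663B. Libraries in dabrafenib had fewer counts on precursors in sum, and the size of each fold change depends on how libraries are scaled to each other. Counts are per precursor, so the length and the ends of the reads, which would tell a mature miRNA from a piece of spacer, cannot be seen in the deposited values. The identical MIR3648 copies cannot be told apart. A single resistant line was studied at a single time and dose.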

Additional observations from a re-analysis of the deposited data

Results flagged for a closer look

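The response to dabrafenib was called larger in A375 than in A375-BIR for 3 of the 4 members. This is the contrast on which they were selected, and 3.43% of all tested precursors were called in it, 5 higher and 1 lower. The estimate for MIR663B was also larger in A375, by 0.65, and was not called. The difference on the log2 scale, A375 minus A375-BIR, was 1.24 for MIR663A, 1.65 for MIR3648-1 and 1.64 for MIR3648-2. MIR3648-1 and MIR3648-2 share their sequence and reads and count as 1 result. Over the alternatives the values lay between 0.77 and 1.34 for MIR663A and between 1.17 and 1.84 for MIR3648-1. MIR663A lost its call under 10 of 23 alternatives and MIR3648-1 under 0. As these values chose the members, nothing is read from them. Groups of 3 libraries were not tested for outlying samples.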

How the results depend on the processing

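No log2 fold change of a member changed its sign under any alternative. The precursors called for dabrafenib against DMSO in A375-BIR went from 36 to between 20 and 46 with each library left out, with 20 without A375-BIR DMSO replicate 1 and 22 without replicate 2. Those called for the difference in response went from 6 to 3 with copies summed and to between 3 and 6 with each library left out, with 3 without A375 DMSO replicate 1 or A375 dabrafenib replicate 1 or 2. The list of 17 rRNA-like precursors held 26 with a run of 16 bases and 9 with a run of 22, and 18 on either strand. Why the counts moved was not tested. The other 149 summary values stayed within 1.5 times or 1 SD of the main value.

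With the replicate number as a block, 103 precursors were called over both treatments (105 without it), 78 in each treatment (81), 34 and 26 for dabrafenib in A375 and A375-BIR (44 and 36), and 6 for the difference (6). The block in DMSO alone rests on numbers taken to pair the libraries of the lines. With it, 82 were called in each treatment, 105 over both, 44 and 37 for dabrafenib, and 6 for the difference. This fit was added after seeing the data, and it changed no call of a member.

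Scaling, the filter and other choices turned the balance of calls in some comparisons. With total counts alone, 24 precursors were higher and 59 lower in A375 in dabrafenib (42 and 39 with TMM), 35 and 72 over both treatments (45 and 60), 18 and 44 for dabrafenib in A375 (32 and 12), and 3 and 5 for the difference (5 and 1). For dabrafenib in A375 the filter of 1 CPM gave 19 and 34, no filter 20 and 27, and copies summed 22 and 23. Between the lines in dabrafenib they gave 33 and 57, 31 and 54, and 32 and 45, and rRNA-like precursors left out of the totals gave 32 and 42. The replicate block gave 37 and 41 there, and leaving out a library could turn it too, with 35 and 40 without A375 dabrafenib replicate 1. For dabrafenib in A375-BIR the filter of 1 CPM gave 25 and 28 (23 and 13 in the main fit). With DESeq2's size factors 54 and 50 were called over both treatments and 23 and 23 for dabrafenib in A375. MIR3648-1 over both treatments had log2 fold changes of -0.46 with the filter of 1 CPM, -0.41 without rRNA-like precursors in the totals and -0.43 with copies summed, each past the threshold. With no filter MIR3648-2 passed at -0.49 and MIR3648-1 did not at -0.48. MIR663A over both treatments was past it throughout, between 1.28 and 1.64. The mean ratios within a library, alternatives for which were added after seeing the data, moved by over 1 SD in 1 case, from 2.46 to 2.53 for the 61-base pair in A375 in dabrafenib with MIR663A alone as the denominator. No member fell below the filter, so the test kept for such precursors was not run. Depth limits MIR663B most, with 2.80 to 30.4 counts per library.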
